A study of Mus musculus with 7 samples.

Results

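The 8 genes described here are targets and feedback genes of Wnt/β-catenin signalling, chosen by symbol as known targets of β-catenin and not by a threshold on their values: Axin2, Nkd1, Apcdd1, Notum, Wif1, Lef1, Tcf7 and Sp5. The choice was made with earlier results of these data known. Each had 1 row in the table, out of 56941 rows. The measurement was poly(A) RNA sequencing of fresh mouse cerebral cortex at postnatal day 7. It covered 3 samples from mice with the Hnrnph2 variant P213L (the gene lies on the X chromosome and its RNA-binding protein acts in splicing), and 4 wild-type (WT) samples. No other allele or agent is named for either group. Sex, strain and whether each sample was a separate animal are not stated, so a p-value here covers the spread among the samples alone, which may be technical.

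In canonical Wnt signalling a Wnt ligand binds a Frizzled receptor and an LRP coreceptor, which stops a cytoplasmic destruction complex from degrading β-catenin. β-catenin then enters the nucleus and, with DNA-binding partners of the TCF/LEF family, switches on target genes. Many of these targets are themselves inhibitors of the pathway, so their level serves as a readout of it and also as its brake. In the developing brain the pathway is known for holding back the differentiation of oligodendrocyte precursors, the cells that give rise to myelin-forming glia. It is also known for building the blood-brain barrier in endothelial cells, which receive Wnt7a and Wnt7b from neural cells.

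TCF/LEF proteins bind a short core, so the windows around the transcription starts of the members were searched for it on both strands. One form searched was CTTTGAT. Its variant with a final A was CTTTGAA. With T in the sixth place the search used CTTTGTT. The remaining form was CTTTGTA. The 4 forms share their opening letters and differ at the end, so no position could count for more than 1 of them. The windows run from 250 bases before to 50 bases after a start (RefSeq, GRCm38.p6). For 6 of the 8 genes 10 windows were read, leaving out Apcdd1 and Notum. Of all 32851 windows of that table, 16.88% held at least 1 match and 1.939% held 2 or more. Counted by gene, 18.95% of 27025 genes had a match in at least 1 window, and 2 of the 6 members did. Sp5 held 2 matches. Lef1 held 1 match, in 1 of its several windows, at a start inside the gene. The windows of Axin2, Nkd1, Tcf7 and Wif1 held none, which says only that these letters are not in these windows. Shown are Sp5, with the most matches, and Axin2 and Nkd1, which were both lowest in WT replicate 3 as described below. Matches are in capitals, and all 3 windows are on the plus strand, at chr2:70474673-70474972 for Sp5, chr11:108920099-108920398 for Axin2 and chr8:88527383-88527682 for Nkd1. The Nkd1 window lies at a start inside the gene.
Sp5: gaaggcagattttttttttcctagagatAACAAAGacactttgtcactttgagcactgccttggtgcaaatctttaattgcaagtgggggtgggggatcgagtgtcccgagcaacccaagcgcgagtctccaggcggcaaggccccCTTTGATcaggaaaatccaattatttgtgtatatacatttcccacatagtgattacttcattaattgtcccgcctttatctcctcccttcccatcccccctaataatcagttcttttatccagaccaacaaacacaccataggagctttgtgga
Axin2: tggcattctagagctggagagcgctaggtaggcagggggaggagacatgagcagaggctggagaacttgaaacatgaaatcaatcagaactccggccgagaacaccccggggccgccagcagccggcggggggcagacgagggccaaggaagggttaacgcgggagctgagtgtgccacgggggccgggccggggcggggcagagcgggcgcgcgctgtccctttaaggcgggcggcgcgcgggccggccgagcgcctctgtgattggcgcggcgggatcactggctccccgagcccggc
Nkd1: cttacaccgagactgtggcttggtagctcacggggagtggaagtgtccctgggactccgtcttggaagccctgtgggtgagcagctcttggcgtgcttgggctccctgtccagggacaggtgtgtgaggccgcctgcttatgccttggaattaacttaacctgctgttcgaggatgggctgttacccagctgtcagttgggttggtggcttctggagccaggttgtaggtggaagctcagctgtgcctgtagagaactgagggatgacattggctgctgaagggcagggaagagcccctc
In Sp5 the match on the minus strand begins 222 bases before the start site and the one on the plus strand 104 bases before it.

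The data are transcripts per 1000000 (TPM), which divide reads by gene length and scale each library to the same total. All 8 genes had a mean of at least 1 TPM and were tested, among 17582 genes in all. None of the 8 passed the threshold (adjusted p under 0.05 in limma) between P213L and WT cortex, where 0 of 17582 genes did (0% called). At an unadjusted p under 0.05 the count was also 0 of 8, against 3.74% of all tested genes. Relative to WT, 6 of the 8 had a higher mean log2 value in P213L cortex and 2 a lower one (Lef1 and Wif1), beside 63.4% of all tested genes with a higher one. The median log2 fold change was 0.16 over the 8 genes and 0.07 over all tested genes. Without WT replicate 3, a library described below, all 8 had a higher mean log2 value in P213L, beside 49.7% of all tested genes, and the medians were 0.07 over the 8 and -0.00099 over all. Leaving out P213L replicate 1 in its place also put all 8 on the higher side, beside 65.3% of all tested genes. Without WT replicate 2 it was 5 of the 8, beside 11569 of 17568 tested genes. With WT replicates 2 and 3 left out together it was also 5 of the 8, beside 8916 of 17722. Each of the other libraries left out singly gave 6 of the 8. Under median-of-ratios scaling 6 of the 8 were higher (median 0.08) beside 49.1% of all tested genes, and under quantile normalization 6 of the 8 (median 0.06) beside 48.6%. For each of the 8 the values of the groups overlapped, while 8.69% of all tested genes had groups that did not overlap. These are bulk samples, in which fewer cells of a type and less RNA per cell cannot be told apart.

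WT replicate 3 stood apart from the other libraries, and several results below rest on it. Over the tested genes it correlated at 0.943 to 0.949 with each of the others, which correlated at 0.981 to 0.992 with each other, and its estimated depth was the lowest, at 57.2 M counted units (M, 1000000) against 66.4 to 79.4 M. It was the lowest of the 7 libraries in 55% of tested genes and the highest in 21.6%. The summed level of 10 markers of excitatory neurons, the defining neurons of cortex, was 1675 to 1866 TPM in P213L and 1867 to 1929 TPM in 3 of the WT libraries, but 1007 TPM in WT replicate 3. Markers of the choroid plexus summed to 18.3 to 19.2 TPM in P213L and to 13.01 to 17.5 TPM in WT, other than 1264 TPM in WT replicate 2. Hnrnph2 itself averaged 82.0 ± 5.39 TPM in P213L and 87.0 ± 5.66 TPM in WT (SD, n = 3 and 4), and since the variant changes the protein this level does not check the labels.

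Among the brakes that act inside the cell, Axin2 is a scaffold of the destruction complex and a common readout of β-catenin activity (mm10, chromosome 11, 108920349 to 108950783, plus strand). Axin2 stood at 25.4, 22.8 and 24.8 TPM in P213L replicates 1 to 3 and at 25.3, 22.8, 12.001 and 20.4 TPM in WT replicates 1 to 4. The P213L samples lay within the range of WT replicates 1, 2 and 4 except P213L replicate 1, slightly above it, and the low value was WT replicate 3. On the log2 scale the fold change of Axin2 was 0.32 ± 0.24 (SE), with an adjusted p of 0.827 in limma and an exact two-sided permutation p of 0.314. Its 95% interval ran from 0.847-fold to 1.83-fold. Without WT replicate 3 the log2 fold change of Axin2 was 0.09 ± 0.09.

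Nkd1, the other brake inside the cell, binds dishevelled and dampens its signal (chromosome 8, 88521354 to 88594884, plus strand). Nkd1 stood at 25.6, 22.4 and 22.6 TPM in P213L and at 25.4, 21.0, 14.8 and 20.02 TPM in WT. WT replicate 3 was again the lowest, and the groups overlapped through WT replicate 1. Between the groups Nkd1 had a log2 fold change of 0.23 ± 0.18 (SE), with an adjusted p of 0.827 in limma and an exact permutation p of 0.286, and of 0.09 ± 0.10 without WT replicate 3.

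Of the inhibitors at the cell surface or outside the cell, Apcdd1 was the most abundant of the 8 genes. It encodes a membrane glycoprotein that binds Wnt and LRP proteins (chromosome 18, 62922231 to 62961179, plus strand). Apcdd1 stood at 38.8, 36.2 and 37.7 TPM in P213L and at 38.8, 36.5, 24.0 and 36.9 TPM in WT. Apart from WT replicate 3, the libraries lay within 0.10 of each other on the log2 scale, a spread at the 2.02 percentile of all tested genes. Over all libraries its log2 fold change was 0.16 ± 0.18 (SE), with an adjusted p of 0.827 in limma and an exact permutation p of 0.657. Without WT replicate 3 it was 0.005 ± 0.06, with a 95% interval from -0.13 to 0.14.

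Notum is a secreted enzyme that removes the lipid Wnt proteins need for receptor binding (chromosome 11, 120653788 to 120661175, minus strand). Notum stood at 5.85, 5.51 and 5.50 TPM in P213L and at 5.28, 4.04, 5.79 and 5.01 TPM in WT. Here WT replicate 3 was high and WT replicate 2 lowest, and the groups overlapped only through WT replicate 3. Its log2 fold change was 0.16 ± 0.15 (SE), with an adjusted p of 0.827 in limma and an exact permutation p of 0.286. Without WT replicate 3 it was 0.22 ± 0.11, with an adjusted p of 0.608 in limma, and without WT replicate 2 it was 0.065 ± 0.14, with an adjusted p of 0.846 in limma. Notum was the single member, of 8, whose groups did not overlap without WT replicate 3, with P213L higher. Of all tested genes 14.2% had groups that did not overlap without WT replicate 3, and 7.33% did so with P213L higher. The antisense genes Notumos (0.424 to 0.891 TPM) and Myadml2os (0.211 to 0.809 TPM) overlap Notum. Antisense genes also overlap Axin2 (Gm11670, 0.323 to 1.98 TPM), Tcf7 (A630014C17Rik, 0.120 to 0.232 TPM) and Lef1 (Gm43352, without a value here). The library kit keeps strand, but whether the counting used it is not stated. Genes on the same strand, which strand cannot set apart, overlap Lef1 (Gm42449, 0 to 0.182 TPM), Nkd1 (Gm45496, 0.0188 to 0.0985 TPM) and Tcf7 (Gm26551, without a value here).

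Wif1 encodes a secreted protein that binds Wnts (chromosome 10, 121033960 to 121100650, plus strand). Wif1 stood at 1.58, 2.21 and 1.94 TPM in P213L and at 1.64, 2.04, 2.18 and 1.91 TPM in WT. Both groups covered nearly the same range, and the lowest value in each came from replicate 1. For Wif1 the log2 fold change was -0.03 ± 0.17 (SE), with an adjusted p of 0.965 in limma, an exact permutation p of 0.8286 and a 95% interval from -0.42 to 0.37. Without WT replicate 3 it was 0.021 ± 0.16, on the other side of 0. At these levels Wif1 rested on an estimated 74.5 to 100 counted units a library, the lowest of the 8.

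Lef1 and Tcf7 encode TCF/LEF factors, which are both partners of β-catenin and targets of it. Lef1 (chromosome 3, 131110471 to 131224356, plus strand) was the least abundant of the 8 genes, at 1.40, 1.49 and 1.69 TPM in P213L and at 1.40, 1.52, 1.92 and 1.49 TPM in WT. WT replicate 3 held the highest Lef1 value and the lowest Axin2 value of the 7 libraries. Its log2 fold change was -0.04 ± 0.17 (SE), with an adjusted p of 0.948 in limma and an exact permutation p of 0.8, and 0.04 ± 0.14 without WT replicate 3, on the other side of 0. Tcf7 (chromosome 11, 52252371 to 52283014, minus strand) stood at 10.3, 8.94 and 9.22 TPM in P213L and at 8.99, 8.39, 6.41 and 10.1 TPM in WT. For Tcf7 the log2 fold change was 0.17 ± 0.16 (SE), with an adjusted p of 0.827 in limma and an exact permutation p of 0.371, and 0.05 ± 0.10 without WT replicate 3.

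Sp5 encodes a zinc-finger factor of the Sp family that is a direct target of β-catenin (chromosome 2, 70474923 to 70477729, plus strand). Sp5 stood at 3.85, 2.89 and 3.82 TPM in P213L and at 4.10, 2.08, 3.40 and 3.14 TPM in WT. The widest spread among the 6 libraries other than WT replicate 3 was that of Sp5, 0.83 on the log2 scale, with WT replicate 1 highest and WT replicate 2 lowest. For Sp5 the log2 fold change was 0.15 ± 0.22 (SE), with an adjusted p of 0.849 in limma, an exact permutation p of 0.629 and a 95% interval from -0.36 to 0.66. Sp5 and Notum were both lowest in WT replicate 2, the library with high choroid plexus markers. The part of that tissue in these low values was not tested.

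**Figure D1:**
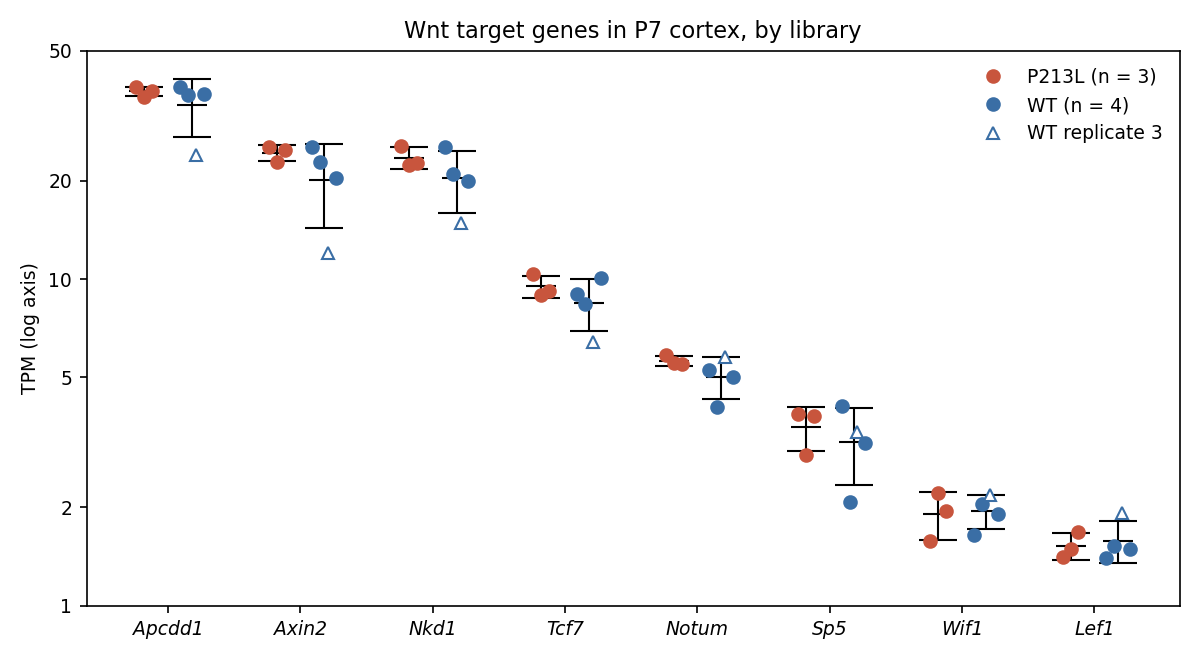
TPM of the 8 Wnt target genes in each library (log axis), ordered by level, with P213L samples in red (n = 3) and WT samples in blue (n = 4). Horizontal marks and bars give the mean ± SD. The open triangle, WT replicate 3, is lowest for Apcdd1 (24.0 TPM), Axin2 (12.001 TPM), Nkd1 (14.8 TPM) and Tcf7 (6.41 TPM), and highest of all for Lef1 (1.92 TPM).

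**Figure D2:**
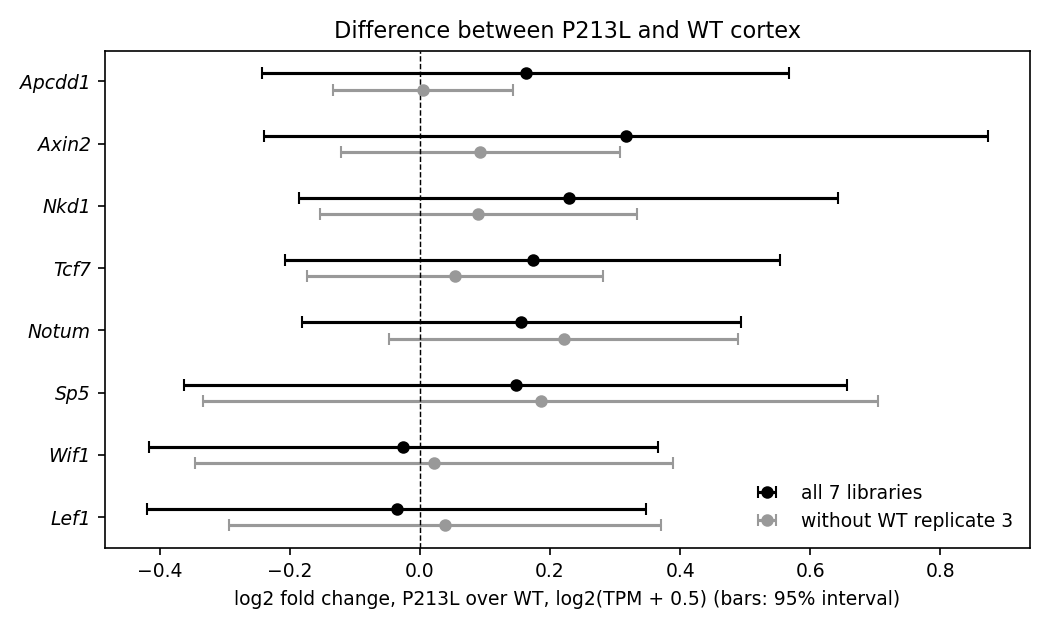
Log2 fold change of P213L over WT for each gene, on the log2(TPM + 0.5) scale, with 95% intervals from limma, over all 7 libraries (black) and without WT replicate 3 (grey). All 16 intervals include 0, and those of Axin2 and Apcdd1 are narrower without that library.

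The order of the levels was nearly the same in every library. Apcdd1 (mean over the 7 libraries 35.5 TPM) was above Axin2 (21.9 TPM) in 7 of 7 libraries. Axin2 and Nkd1 (21.7 TPM) did not differ beyond their spread, Axin2 being the higher in 4 of 7. Tcf7 (8.91 TPM), Notum (5.28 TPM), Sp5 (3.33 TPM), Wif1 (1.93 TPM) and Lef1 (1.56 TPM) followed, each above the next in 7 of 7 libraries. The ranges of Apcdd1 and Axin2, of Notum and Sp5, of Sp5 and Wif1 and of Wif1 and Lef1 overlapped across libraries, so those steps show within a library and not between libraries. The summed level of the 8 genes was 102.4 to 112.8 TPM in P213L and 70.5 to 110.9 TPM in WT.

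Across the libraries the 8 genes fell into a pattern that did not follow the genotype. Axin2, Apcdd1, Nkd1 and Tcf7 had their lowest value of the 7 in WT replicate 3, where Axin2 was at 0.52, Apcdd1 at 0.645, Nkd1 at 0.659 and Tcf7 at 0.705 of the geometric mean of the other 6 on the TPM + 0.5 scale. Notum, Sp5, Wif1 and Lef1 were at 1.11, 1.04, 1.13 and 1.21 of that mean in the same library. The median deviation of WT replicate 3 was -0.22 on the log2 scale over the 8 genes and -0.30 over all tested genes, where the 10th and the 90th percentile were -1.24 and 0.50. The low value of Axin2 (-0.94) was at the 17.3rd percentile of all tested genes and the high value of Lef1 (0.28) at the 81.6th. The 4 genes that were low there are also the 4 most abundant.

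**Figure D3:**
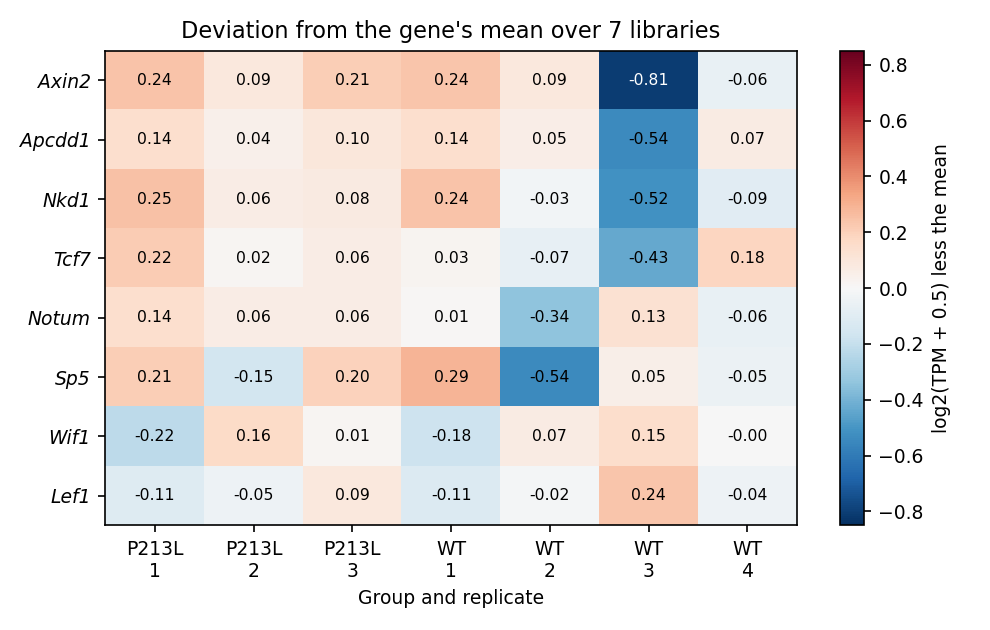
Deviation of each gene from its own mean over the 7 libraries, in log2(TPM + 0.5), with P213L libraries left of WT libraries. Axin2 (-0.81), Apcdd1 (-0.54), Nkd1 (-0.52) and Tcf7 (-0.43) are low in WT replicate 3, Sp5 (-0.54) and Notum (-0.34) are low in WT replicate 2, and no row separates the P213L columns from the WT columns.

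Likeness to Axin2 was measured as the root mean square difference of the mean-centred log2 values over the 7 libraries, so a smaller number means a more similar profile. Among the members Nkd1 (0.13), Apcdd1 (0.13) and Tcf7 (0.21) were nearest. Many other genes were as near, since these distances were at the 7.55, 8.21 and 23.1 percentile of all tested genes. Sp5 (0.41), Notum (0.40), Wif1 (0.44) and Lef1 (0.45) were farther than the spread of Axin2 itself (0.35). The 5 nearest of all tested genes, leaving out gene models, were Mllt1 (0.027), Adgra2 (0.030), Loxl1 (0.034), Zc3h18 (0.039) and Dzip1l (0.040). Adgra2 encodes the coreceptor that brain endothelial cells use for Wnt7a and Wnt7b. Adgra2 stood at 25.5, 22.4 and 24.0 TPM in P213L and at 24.7, 21.5, 11.3 and 20.2 TPM in WT. As with Axin2, its low value was WT replicate 3, and all 5 profiles share that dip.

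Because Axin2 and Lef1 are expressed in endothelial cells and in oligodendrocyte precursors, each was set against the mean log2 level of those markers within each sample. Axin2 less the 14 endothelial markers was 0.40 ± 0.08 in P213L and 0.08 ± 0.41 in WT (SD, n = 3 and 4; exact permutation p = 0.286, adjusted over the 4 comparisons of this kind p = 0.571). Axin2 less the 10 precursor markers was -1.21 ± 0.10 in P213L and -1.46 ± 0.26 in WT (exact permutation p = 0.171, adjusted p = 0.571). For Lef1 the same differences were -3.22 ± 0.12 in P213L and -3.18 ± 0.21 in WT against the endothelial markers (exact permutation p = 0.857, adjusted p = 1), and -4.83 ± 0.06 in P213L and -4.72 ± 0.38 in WT against the precursor markers (exact permutation p = 1, adjusted p = 1). The P213L less WT difference for Axin2 without WT replicate 3 was 0.12 against the endothelial markers, where all libraries gave 0.31, and 0.14 against the precursor markers, where all libraries gave 0.25. The smallest p that 35 splits of 7 samples allow is 0.0286. The markers themselves summed to 368 to 381 TPM in P213L and 373 to 390 TPM in WT for endothelium, and to 907 to 939 TPM in P213L and 798 to 922 TPM in WT for precursors, the groups overlapping in both.

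The rest of the pathway was taken from 8 lists by role, with 123 genes, of which 108 were tested and 15 had a mean under 1 TPM. None of the 108 passed adjustment over all genes in limma. At an unadjusted p under 0.05 there were 6, with 5 higher and 1 lower in P213L, which is 5.56% beside 3.74% of all tested genes. The groups did not overlap for 14 of the 108 (12.96%, beside 8.69% of all tested genes). The median log2 fold change over the 108 was 0.16, beside 0.07 over all tested genes. Of the 108, 85 were higher in P213L, beside 63.4% of all tested genes. The median over the 108 was 0.017 without WT replicate 3, beside -0.00099 over all tested genes. In that setting 58 of the 108 were higher, beside 49.7% of all tested genes. The counts by role that follow are to be read beside the same shares. Apart from the most abundant gene of each role, the genes named below were picked for having the smallest limma p of their role in these same data. Small p-values and groups without overlap are therefore favoured by that choice. For these genes they describe the values and are not a separate test.

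Of the ligands, 10 of 13 tested had a higher mean in P213L (median log2 fold change 0.10). Wnt7b, the most abundant ligand, averaged 58.5 ± 4.15 TPM in P213L and 51.5 ± 10.01 TPM in WT (SD, n = 3 and 4). Wnt7a, its close relative with the same endothelial role, averaged 28.5 ± 2.42 TPM in P213L and 22.4 ± 4.04 TPM in WT, a log2 fold change of 0.35 ± 0.16 (SE; limma adjusted p = 0.827). Wnt5b averaged 3.17 ± 0.389 TPM in P213L and 2.52 ± 0.517 TPM in WT. All 3 ligands had groups that overlapped, Wnt5b only through WT replicate 3. Of the genes for Wnt secretion and the R-spondins, which amplify the signal, 1 of 5 was higher (median -0.04). Porcn, the enzyme that attaches lipid to Wnts, averaged 59.5 ± 3.59 TPM in P213L and 56.3 ± 9.82 TPM in WT, while Rspo3 averaged 5.87 ± 1.09 TPM in P213L and 6.91 ± 1.31 TPM in WT. Rspo1 averaged 5.57 ± 0.537 TPM in P213L and 6.03 ± 0.945 TPM in WT.

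Of the receptors and coreceptors, 16 of 20 had a higher mean in P213L over all libraries (median 0.16) and 8 of 20 without WT replicate 3 (median -0.035). The Frizzled receptor gene Fzd9 stood at 34.95, 30.5 and 31.2 TPM in P213L and at 29.8, 22.8, 21.9 and 21.5 TPM in WT. All 3 P213L values lay above the 4 WT values, by a small margin over WT replicate 1. Fzd9 had a log2 fold change of 0.43 ± 0.14 (SE; limma p = 0.0171, adjusted p = 0.827; exact permutation p = 0.0571), so it did not pass. Fzd3, the most abundant receptor gene, averaged 44.7 ± 7.12 TPM in P213L and 43.8 ± 13.9 TPM in WT. The Fzd3 mean of WT was 50.1 TPM without WT replicate 3, at 25.1 TPM, and its log2 fold change was -0.16, where all libraries gave 0.08. Fzd8 averaged 11.3 ± 0.564 TPM in P213L and 8.84 ± 2.42 TPM in WT.

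Of the inhibitors other than the 8 genes, 13 of 15 had a higher mean in P213L (median 0.21; 9 of 15 and a median of 0.07 without WT replicate 3). Shisa2, a protein known in Xenopus and mouse work to hold back Frizzled and FGF receptors inside the cell, stood at 6.98, 6.95 and 5.82 TPM in P213L and at 4.66, 5.02, 3.33 and 3.71 TPM in WT. Shisa2 was picked for the smallest limma p of this list, and its groups did not overlap. Its log2 fold change was 0.61 ± 0.17 (SE; limma p = 0.00734, adjusted p = 0.827; exact permutation p = 0.0286, the smallest possible), and 0.52 without WT replicate 3. Sfrp2, a secreted Wnt-binding protein, averaged 23.6 ± 1.09 TPM in P213L and 18.6 ± 3.14 TPM in WT (log2 fold change 0.36 ± 0.15; limma adjusted p = 0.827). Dkk3, the most abundant gene of the list, averaged 140.3 ± 1.68 TPM in P213L and 153.0 ± 30.9 TPM in WT. Leaving out WT replicate 3, at 108.1 TPM, the groups of Dkk3 did not overlap (P213L lower, log2 fold change -0.26).

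Of the destruction complex and dishevelled genes, 15 of 16 had a higher mean in P213L (median 0.21), and without WT replicate 3 this was 8 of 16 (median 0.02). WT replicate 3 was the lowest of the 7 libraries for 15 of these 16 genes. Apc, the largest scaffold of the complex, averaged 261.6 ± 17.4 TPM in P213L and 273.5 ± 107.9 TPM in WT. These counts use mean log2 values, on which Apc was higher in P213L (0.04) although its mean TPM was lower, and without WT replicate 3, at 128.0 TPM, its log2 fold change was -0.28. Dvl2, a dishevelled gene, averaged 19.8 ± 0.723 TPM in P213L and 15.0 ± 4.68 TPM in WT. Dvl1 averaged 109.1 ± 6.57 TPM in P213L and 85.4 ± 25.8 TPM in WT. Of β-catenin and its nuclear partners, 15 of 16 were higher (median 0.22; 12 of 16 and 0.10 without WT replicate 3). Ctnnb1, the gene of β-catenin, averaged 404.8 ± 16.5 TPM in P213L and 384.4 ± 34.9 TPM in WT (log2 fold change 0.08 ± 0.10; limma adjusted p = 0.838).

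Tle2, a corepressor that TCF/LEF factors recruit when β-catenin is absent, stood at 19.3, 17.6 and 18.4 TPM in P213L and at 17.3, 10.1, 8.18 and 11.4 TPM in WT. The lowest P213L value of Tle2 was just above WT replicate 1, and the other WT values were far lower. Its log2 fold change was 0.68 ± 0.23 (SE; limma p = 0.0183, adjusted p = 0.827; exact permutation p = 0.0571), and 0.53 without WT replicate 3. Pygo2, which links β-catenin complexes to chromatin, averaged 73.6 ± 2.45 TPM in P213L and 64.5 ± 4.39 TPM in WT, with groups that did not overlap (log2 fold change 0.19 ± 0.10; limma adjusted p = 0.827).

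Of other reported targets, 8 of 13 were higher over all libraries (median 0.16) and 6 of 13 without WT replicate 3 (median -0.02). Nkd2, the relative of Nkd1, averaged 14.2 ± 0.806 TPM in P213L and 10.5 ± 2.25 TPM in WT, with groups that did not overlap. Its log2 fold change was 0.44 ± 0.19 (SE; limma p = 0.0468, adjusted p = 0.827; exact permutation p = 0.0857). Zcchc12 averaged 249.98 ± 12.2 TPM in P213L and 215.6 ± 12.6 TPM in WT, also without overlap. Of the genes of brain endothelium that depend on Wnt signalling, 7 of 10 were higher over all libraries (median 0.07) and 5 of 10 without WT replicate 3 (median -0.02). Mfsd2a, a lipid transporter of the blood-brain barrier, stood at 53.7, 50.3 and 50.5 TPM in P213L and at 59.5, 64.5, 59.0 and 57.5 TPM in WT. All 3 P213L values of Mfsd2a lay below all 4 WT values, WT replicate 3 included, with a log2 fold change of -0.22 ± 0.09 (SE; limma p = 0.047, adjusted p = 0.827; exact permutation p = 0.0286). Cldn5, the main tight junction protein of that barrier, averaged 231.6 ± 9.35 TPM in P213L and 246.5 ± 61.1 TPM in WT. WT replicate 3 held 331.6 TPM of Cldn5, and without it the WT mean was 218.2 TPM and the log2 fold change 0.09, where all libraries gave -0.06.

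**Figure D4:**
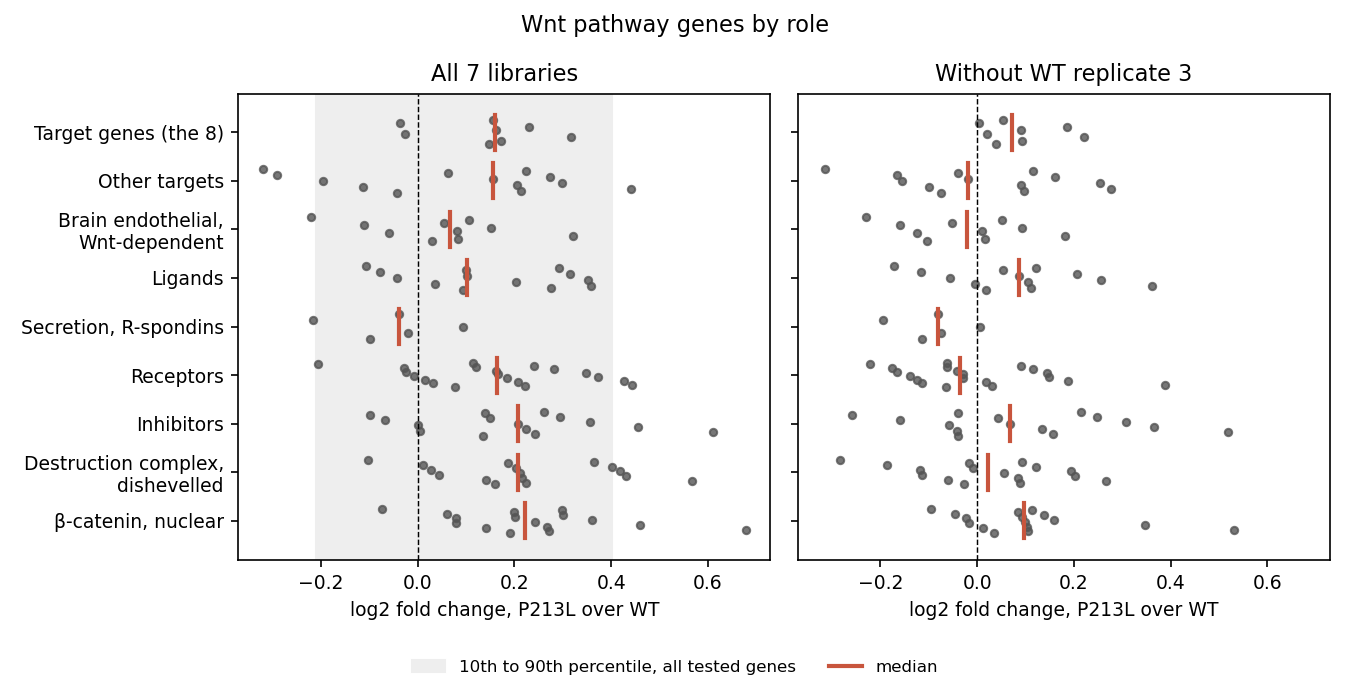
Log2 fold change of P213L over WT for each tested Wnt pathway gene by role (dots), with the median of each role (red line), over all 7 libraries (left, grey band from -0.21 to 0.40 between the 10th and the 90th percentile of all tested genes) and without WT replicate 3 (right). The medians of the receptors and of the destruction complex are 0.16 and 0.21 on the left and -0.035 and 0.023 on the right.

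Markers of other cell types were compared as summed levels. Myelinating oligodendrocyte markers summed to 270 to 288 TPM in P213L and 349 to 401 TPM in WT, and microglial markers to 284 to 291 TPM in P213L and 294 to 350 TPM in WT, without overlap in either. The microglial gap was narrow. Taken singly, 1 of 11 microglial genes and 6 of 10 myelinating genes had groups that did not overlap, beside 8.69% of all tested genes. The groups overlapped for astrocytes (1237 to 1310 TPM in P213L and 1035 to 1540 TPM in WT), committed oligodendrocytes (400 to 422 TPM in P213L and 336 to 445 TPM in WT), pericytes and smooth muscle (306 to 325 TPM in P213L and 286 to 335 TPM in WT) and meningeal fibroblasts (212 to 283 TPM in P213L and 139 to 224 TPM in WT). The overlap of astrocytes and of committed oligodendrocytes came from WT replicate 3 alone, since the other WT libraries stood at 1348 to 1540 TPM and 431 to 445 TPM, all above P213L. The groups also overlapped for inhibitory neurons (1629 to 1735 TPM in P213L and 1569.5 to 2410 TPM in WT), progenitors (1182 to 1274 TPM in P213L and 971 to 1715 TPM in WT), thalamus (250 to 256 TPM in P213L and 238 to 292 TPM in WT), hippocampus (187.9 to 212.7 TPM in P213L and 166 to 198 TPM in WT) and striatum (715 to 756 TPM in P213L and 706 to 895 TPM in WT). WT replicate 3 alone gave the high WT end for inhibitory neurons, progenitors and thalamus. The other WT libraries stood at 1569.5 to 1757 TPM, 971 to 1206 TPM and 238 to 251 TPM, and still overlapped P213L. None of the defining markers in these lists was at 0 in all libraries. Their part in the values of the Wnt genes was not tested.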

How the data were processed

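TRIzol RNA of fresh cortex went into TruSeq stranded mRNA libraries, per the labels' protocols. The submitters' processing notes name HISAT2, HTSeq and the build mm10, while tool versions, annotation and gene lengths were not given in the sources used here. TPM is the unit per the file headers of the deposited table, and its columns each sum to 1000000, so a library in which a few transcripts take a larger share shows less of everything else.

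Groups came from sample titles. The test used log2(TPM + 0.5) of genes averaging 1 TPM or more over the 7 samples, in 1 limma 3.58.1 fit in R 4.3.3 (mean-variance trend, two-sided, Benjamini-Hochberg over all tested genes, threshold 0.05). This scale shrinks fold changes of low genes. For single values an exact permutation test over 35 splits was added. Depth was estimated from TPM times GENCODE vM21 exon length (85.9% of rows matched by symbol), with the most frequent low value as 1 counted unit. Among values of at most 10 units the share within 0.05 of a multiple of 0.5 units was 95.2 to 96.1%. No count test was run. The fit was tested on simulated data.

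The members and lists were chosen with earlier results of these data known. Named genes are the 8 members, up to 2 genes with the smallest p and the most abundant gene of each role, and the 5 nearest to Axin2; 1 gene that this rule names is not reported here. Gene coordinates are from GENCODE vM21 (mm10). Alternatives covered pseudocounts, filters, scalings, fit options, sample weights, a replicate block and samples left out. Figures used matplotlib 3.10.9.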

Additional observations from a re-analysis of the deposited data

Results flagged for a closer look

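In 59 measures a WT sample far from the remaining 3 was searched for, and 8 had one, 6 of them in WT replicate 3. By chance about 1 in 20 groups of this size gives such a sample, and the measures share their libraries. Apcdd1 stood at 24.0 TPM in WT replicate 3, against 36.5 to 38.8 TPM in the other WT samples. In the same library Lef1 less the endothelial markers was -2.86 on the log2 scale (-3.31 to -3.25 in the other WT samples) and Lef1 less the precursor markers was -4.16 (-4.94 to -4.89). Also in WT replicate 3, the destruction complex and dishevelled genes summed to 989 TPM (1712 to 1751 in the other WT samples), markers of committed oligodendrocytes to 336 TPM (431 to 445) and markers of excitatory neurons to 1007 TPM (1867 to 1929). Choroid plexus markers summed to 1264 TPM in WT replicate 2, against 13.01 to 17.5 TPM. Fzd9 stood at 29.8 TPM in WT replicate 1, against 21.5 to 22.8 TPM.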

How the results depend on the processing

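No gene and no member passed in limma under any of the alternatives other than sample weights. With weights, from 0.0431 for WT replicate 3 to 6.90 for P213L replicate 3, 3981 genes passed (22.6% of those tested) and 1 member, Axin2 (log2 fold change 0.22, adjusted p = 0.0405). The cause of that count was not tested. With each sample left out in turn both counts stayed at 0 (0 to 0). With the replicate number as a block, 0 genes and 0 members passed. The numbers share no stated source, and same-numbered samples correlated at 0.13, 0.17 and -0.10 in their deviations from the group means. Samples of unlike number in the 2 groups correlated at -0.24 to 0.12, so 0.13 and 0.17 lay just above that range and -0.10 within it.

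Axin2, Nkd1 and Notum kept their direction under all alternatives run. The sign of others turned. With WT replicates 2 and 3 left out together, Lef1 was 0.058, Wif1 0.075, Apcdd1 -0.013, Sp5 -0.036 and Tcf7 -0.0033 on the log2 scale. With sample weights Lef1 was 0.095, Wif1 0.0072 and Tcf7 -0.049. With each sample left out, Lef1 ran from -0.092 to 0.039, Wif1 from -0.11 to 0.078 and Sp5 from -0.013 to 0.27, the last below 0 without WT replicate 2. Over the same samples left out, Axin2 ran from 0.09 to 0.44 and Apcdd1 from 0.005 to 0.23, both lowest without WT replicate 3. Axin2 less the endothelial markers ran from 0.12 to 0.44 and Axin2 less the precursor markers from 0.14 to 0.34, both lowest without WT replicate 3. Lef1 less the endothelial markers ran from -0.11 to 0.064, and Lef1 less the precursor markers from -0.18 to 0.082. Under median-of-ratios scaling, quantile normalization and removal of mitochondrial genes, 6 of the 8 stayed higher and 2 lower, and the median over all genes was -0.005, -0.007 and 0.05, against 0.07. Lef1, Sp5 and Wif1 have a mean under 5 TPM and drop out under that filter. At these depths Wif1 and Sp5 rest on the fewest counted units (74.5 to 100 and 81.5 to 167.5).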
